A study of Homo sapiens with 46 samples.

Results

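The small structural RNAs considered here were 5 RNA polymerase III products chosen by gene name: RN7SL1 and RN7SL2, the copies of 7SL RNA, RN7SK, RMRP and RPPH1. Rows bearing exactly these names were taken from 5 tables of transcript counts, and 3 of the 5 names were found in any of them. RN7SL1 was present in all 5 tables, RN7SL2 in the ectoderm, endoderm and combined-assembly tables, and RPPH1 in the endoderm and combined-assembly tables. RN7SK and RMRP had no row in any table under their names or their annotated gene identifiers. In hPSC the set was thus 1 row among 15396 genes, and in mesoderm 1 among 15172. Ectoderm held 2 among 18508, endoderm 3 among 13910, and the combined assembly, used for its ectoderm libraries, 3 among 21997. Each table carried, in addition, a row named 7SK (ENSG00000202198) that lies on the RN7SK locus. It falls outside the name rule, was taken up after the tables had been read, and is described separately.

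7SL RNA is the scaffold of the signal recognition particle, the cytoplasmic complex that binds ribosomes making secreted and membrane proteins and docks them on the endoplasmic reticulum. The particle is assembled partly in the nucleus before export, and Alu repeats descend from the 7SL gene. 7SK RNA is an abundant nuclear RNA that, with HEXIM and LARP7 proteins, holds the elongation kinase P-TEFb inactive. RPPH1 is the RNA subunit of RNase P, which trims the leader of precursor tRNAs in the nucleus, and RMRP is its relative in RNase MRP, which acts on ribosomal RNA precursors.

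The study used the established human line H1, which is pluripotent (hPSC), together with 3 germ layer derivatives of it. H1 cells were kept on Matrigel in mTeSR1. Endoderm was made with WNT3A and Activin A, mesoderm with VEGF, BMP4, bFGF and a first day of Activin A, and ectoderm with A83-01, PNU-74654 and Dorsomorphin in serum replacement medium, the former pair with added serum, and derivatives were collected after 5 days. Cytoplasm, nucleus, nucleoplasm (what detergent and urea release from nuclei) and chromatin (the remaining pellet) were prepared in buffers containing the polymerase inhibitor α-amanitin. All groups share 1 line and these buffers. The text of the series as a whole also speaks of actinomycin D, a transcription blocker, which no label of these libraries names; whether any received it is not known here. There were 46 libraries in 16 groups, 3 in each of 15 groups and 1 for mesoderm nucleoplasm. Labels do not say whether repeats were separate cultures, so p-values measure only the spread between these samples, which may be technical. In bulk libraries, fewer cells of a type and less RNA per cell cannot be told apart.

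Total counts ran from 4990408 to 21298678 per library in the 4 own-assembly tables. Columns coded "Nei" were read as the nucleus libraries because that was the only fraction left. Of the markers checked in cytoplasm, POU5F1 averaged 2950 CPM in hPSC cells (CPM is a gene's count divided by the library total, times 1000000). It was at 6.22 CPM in ectoderm, at 1760 in endoderm and at 892 in mesoderm. PAX6 had 203 CPM in ectoderm, SOX17 158 in endoderm, and HAND1 132 in mesoderm, where TBXT was at 0.132. Of the other listed ectoderm markers, DLK1 had 4160 CPM, OTX2 170 and ZIC1 0.358 in ectoderm, and SOX1 had no row. Of the other endoderm markers, GATA6 had 103 CPM, EOMES 50, FOXA2 25.5 and CXCR4 3.96 in endoderm. HAND1 was also at 58.1 CPM in endoderm, where GATA3, listed for fibroblast-like or extraembryonic cells, was at 134. Of the other listed mesoderm markers, KDR had 25.2 CPM in hPSC, 1.09 in ectoderm and 17.9 in endoderm. PDGFRA had 1.84, 2.01 and 5.35 CPM there, and MIXL1 had 0.876 in hPSC and 14.9 in endoderm. TBXT, at 4.94 CPM, was higher in endoderm than in mesoderm. Levels of KDR, PDGFRA, MIXL1 and MESP1 in mesoderm are not given here. The markers printed thus do not settle the identity of mesoderm. LIN28A was between 1510 and 2320 CPM in all 4, and DPPA4 averaged 715 CPM in hPSC, 298 in endoderm and 157 in both others. NANOG had a row in hPSC and endoderm (77.1 and 57.9 CPM), and SOX2 in hPSC and ectoderm (190 and 396 CPM), so the pluripotency markers did not move together. Of the fraction markers, GAPDH averaged 6150 CPM in cytoplasm and 2710 in nucleus in hPSC and was higher in cytoplasm in endoderm and mesoderm too, but not in ectoderm, at 3290 against 3430. MALAT1, a nuclear-retained RNA, averaged 232 CPM in cytoplasm and 81.6 in nucleus in hPSC, and 1660 against 168 in ectoderm, against what these labels would give, though its mean was highest in nucleoplasm in all 4 cell types (1990 CPM in ectoderm; 1 library in mesoderm). In endoderm its averages were 126 against 130, and those of mesoderm 172 against 318. Mitochondrial genes held 13.1 to 15.3% of counts in hPSC nucleus libraries and 0.399 to 0.615% in hPSC cytoplasm, but 1.11 to 1.36% in mesoderm nucleus and 5.84 to 7.46% in mesoderm cytoplasm. With mitochondrial counts left out of the total, RN7SL1 in hPSC had 877, 969 and 494 CPM in cytoplasm and 31.9, 39.9 and 55.8 in nucleus. In mesoderm it then had 89.6, 555 and 307 CPM in cytoplasm and 1.87, 3.39 and 6.72 in nucleus. The part of these marker patterns in the results below was not otherwise tested.

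The 7SL copies are so alike that their counts are uncertain. In the GENCODE 29 annotation of GRCh38, RN7SL1 (ENSG00000276168) lies on chromosome 14 from 49586580 to 49586878, plus strand, and RN7SL2 (ENSG00000274012) on the same chromosome from 49862550 to 49862849, minus strand. Both are single-exon genes annotated as miscellaneous RNA. Their GENCODE transcripts differed at 4 of 299 compared positions, and RN7SL2 had 1 further base at its 3′ end. Identity was 98.7%. Of the 269 stretches of 31 bases in RN7SL1, 196 (72.9%) occur unchanged in RN7SL2. A read lying within such a stretch cannot be assigned to either copy from its letters, and read length was not examined. Library by library, the summed counts of the rows (called 7SL) are therefore given where both rows exist. The copies are given singly in the comparisons of fractions, and the division between them is uncertain.

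In every cell type, 7SL counts were highest in cytoplasm, except that nucleoplasm stood as high in hPSC. In hPSC, RN7SL1 had 872, 965 and 492 CPM in cytoplasm and 27.7, 34.6 and 47.3 in nucleus, replicates 1 to 3. Its nucleoplasm libraries had 425, 1400 and 948 CPM, and its chromatin libraries 34.9, 68.2 and 17.7. Cytoplasm and nucleoplasm overlapped, as did chromatin and nucleus, while the pairs were far apart: cytoplasm was 21.3-fold and nucleoplasm 25.3-fold above nucleus by mean CPM.

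In ectoderm, 7SL (the sum of both rows) had 1310, 2460 and 3380 CPM in cytoplasm and 99.9, 40.5 and 153 in nucleus. Nucleoplasm had 39.6, 70.7 and 38.3 CPM and chromatin 117, 81.5 and 203. All 3 cytoplasm libraries were above all 9 others, the mean being 24.4-fold that of nucleus, 48.1-fold that of nucleoplasm and 17.8-fold that of chromatin. Nucleus overlapped with both of its subfractions, whereas chromatin and nucleoplasm did not overlap with each other.

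In endoderm the 7SL sum had 1050, 884 and 670 CPM in cytoplasm and 141, 99.6 and 62.1 in chromatin. Nucleus had 6.71, 74.2 and 21.4 CPM and nucleoplasm 7.11, 26.2 and 14.1. The order cytoplasm, chromatin, nucleus, nucleoplasm by mean was that of ectoderm, and here too chromatin and nucleoplasm did not overlap while nucleus overlapped with both. Nucleus replicate 2 carried most of the nuclear mean of 34.1 CPM.

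Mesoderm had RN7SL1 only, at 84.4, 514 and 285 CPM in cytoplasm. Nucleus had 1.84, 3.34 and 6.63 CPM, chromatin 11.2, 4.33 and 7.45, and the single nucleoplasm library 3.06. Libraries of the 3 lowest-level fractions thus lay between 1.84 and 11.2 CPM, on 24 to 66 counts per library, and all lay well under cytoplasm.

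**Figure D1:**
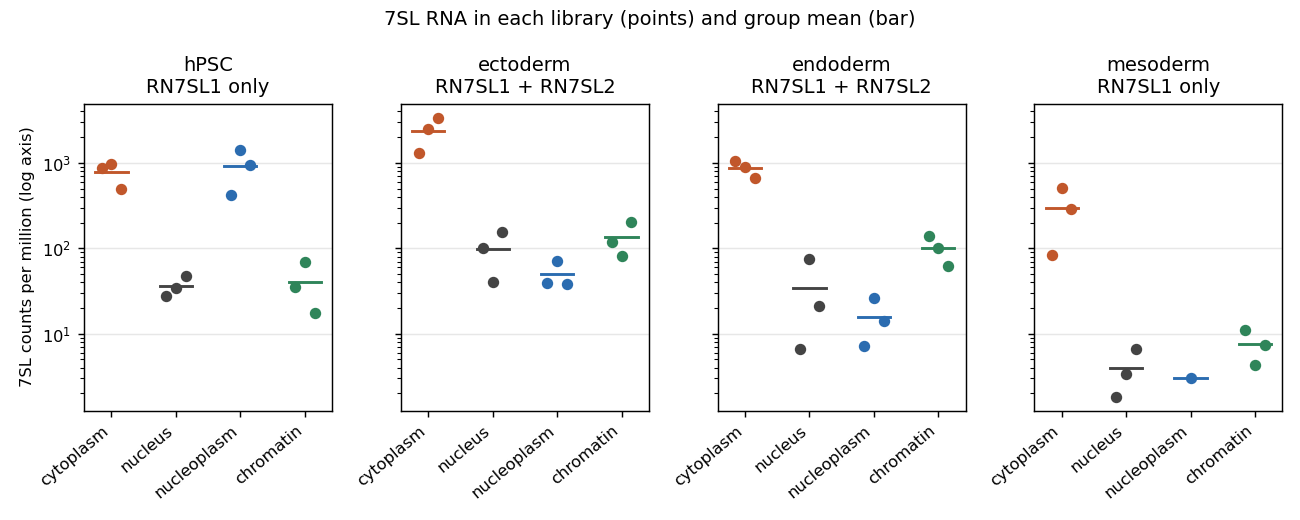
CPM of 7SL RNA (log axis) in each library (points) with the group mean (bar), by fraction and cell type. In hPSC and mesoderm RN7SL1 alone has a row, while in ectoderm and endoderm RN7SL1 and RN7SL2 are summed. Nucleoplasm stands at the level of cytoplasm in hPSC only, with 425 to 1400 CPM, against 7.11 to 70.7 CPM in ectoderm and endoderm.

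The comparison of cytoplasm with nucleus asks in which of these an RNA takes the larger share of counts. By mean CPM, RN7SL1 in hPSC nucleus (36.5) lay below both nucleoplasm (924) and chromatin (40.3), though nucleus and chromatin overlapped. The nucleus mean of the 7SL sum lay between these fractions in ectoderm (97.7, with 49.5 and 134) and endoderm (34.1, with 15.8 and 101). So did that of RN7SL1 in mesoderm (3.94, with 3.06 and 7.67). The part of low nucleus levels in the differences below was not tested. At an edgeR adjusted p under 0.05, 35% of all genes tested in hPSC were called higher in cytoplasm, and in 40.3% the cytoplasm libraries lay above the nucleus libraries with no overlap. RN7SL1 was higher in hPSC cytoplasm with a log2 difference of 4.34 (SE 0.52, edgeR adjusted p = 8.64e-06). In ectoderm, where 27.2% of genes were called higher and 42% did not overlap in that direction, the log2 difference was 4.75 for RN7SL1 (SE 0.58, edgeR adjusted p = 2.34e-05) and 4.09 for RN7SL2 (SE 0.45, edgeR adjusted p = 8.26e-06). In endoderm, where 34.4% of genes were called higher and 55.3% did not overlap, RN7SL1 differed by 4.27 (SE 0.60, edgeR adjusted p = 1.6e-05) and RN7SL2 by 3.97 (SE 0.60, edgeR adjusted p = 3.1e-05). Without nucleus replicate 2, the endoderm differences were 5.51 and 5.08, and without nucleus replicate 3 that of RN7SL1 in ectoderm was 5.40.

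The mesoderm comparison of cytoplasm with nucleus and the hPSC comparison of chromatin with nucleoplasm led to the choice of these RNAs, so their values are descriptions. RN7SL1 in mesoderm had a log2 difference of 6.39 (SE 0.71) between cytoplasm and nucleus, which was 5.72 without cytoplasm replicate 2 and 6.99 without nucleus replicate 3. Of all genes in mesoderm, 31.8% were called higher in cytoplasm and 34.7% lay higher with no overlap. On log2(TPM + 1) of the authors' TPM the mesoderm difference was 4.38, in a fit (limma) where the median of all genes was -0.82 and 10.6% of called genes were higher in cytoplasm.

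Within the nucleus, 7SL lay on opposite sides of the chromatin and nucleoplasm comparison in different cell types. In hPSC, RN7SL1 was 22.9-fold higher in nucleoplasm by mean CPM, a log2 difference of -4.76 (SE 0.53) for chromatin minus nucleoplasm, and -5.35 without chromatin replicate 2. In the same nucleoplasm libraries MALAT1 averaged 819 CPM against 137 in chromatin, but it was also higher in nucleoplasm in ectoderm (1990 against 725) and endoderm (875 against 447), where 7SL was not; its part in the 7SL value was not tested. In hPSC, 13.3% of all genes were called lower in chromatin and 12.5% lay lower with no overlap. In endoderm both copies were higher in chromatin, RN7SL1 by 2.11 (SE 0.58, edgeR adjusted p = 0.00656) and RN7SL2 by 2.08 (SE 0.58, edgeR adjusted p = 0.0071), where 22.9% of genes were called higher and 51.3% did not overlap. Neither call held with single transcripts (edgeR adjusted p = 0.0617 for RN7SL1 and 0.063 for RN7SL2). Without nucleoplasm replicate 2 the value for RN7SL2 was 2.72.

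In ectoderm, where 18.5% of genes were called higher in chromatin and 39.8% did not overlap, RN7SL2 was higher there by 1.15 on the log2 scale (SE 0.41, edgeR adjusted p = 0.0363). RN7SL1 had a log2 difference of 1.17 (SE 0.53, edgeR adjusted p = 0.0886) and the 7SL sum 1.15 (SE 0.44, edgeR adjusted p = 0.051), neither past the threshold. The RN7SL2 call was lost with single transcripts (edgeR adjusted p = 0.164) and on leaving out nucleoplasm replicate 1 (edgeR adjusted p = 0.109), nucleoplasm replicate 3 (edgeR adjusted p = 0.127) or chromatin replicate 3 (edgeR adjusted p = 0.124). The sum passed on leaving out nucleoplasm replicate 2 (edgeR adjusted p = 0.0338) or chromatin replicate 2 (edgeR adjusted p = 0.0276), and so did RN7SL1 (edgeR adjusted p = 0.0498 and 0.0381). The ectoderm rise was therefore a difference of marginal size against the replicate spread. In mesoderm, chromatin libraries (4.33 to 11.2 CPM) all lay above the single nucleoplasm library, which allows no test of spread.

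RN7SL2 had more counts than RN7SL1 in all 24 libraries of ectoderm and endoderm, but the division varied, from 25.9 to 45.9% on RN7SL1. In ectoderm cytoplasm RN7SL1 held 41.2 to 41.6% of 7SL counts, and in endoderm cytoplasm 42.4 to 43.9%. The ectoderm nucleus libraries were lower, from 25.9 to 33.7%, and did not overlap with ectoderm cytoplasm. Nucleoplasm ranged from 33 to 41.7% in ectoderm and 39.3 to 45.9% in endoderm, and chromatin from 31.8 to 41.8% and 38.5 to 43.8%. Since 4 bases separate the copies, the division may depend on how reads shared by both were assigned, which was not tested. An uneven share says nothing certain of the number of molecules.

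**Figure D2:**
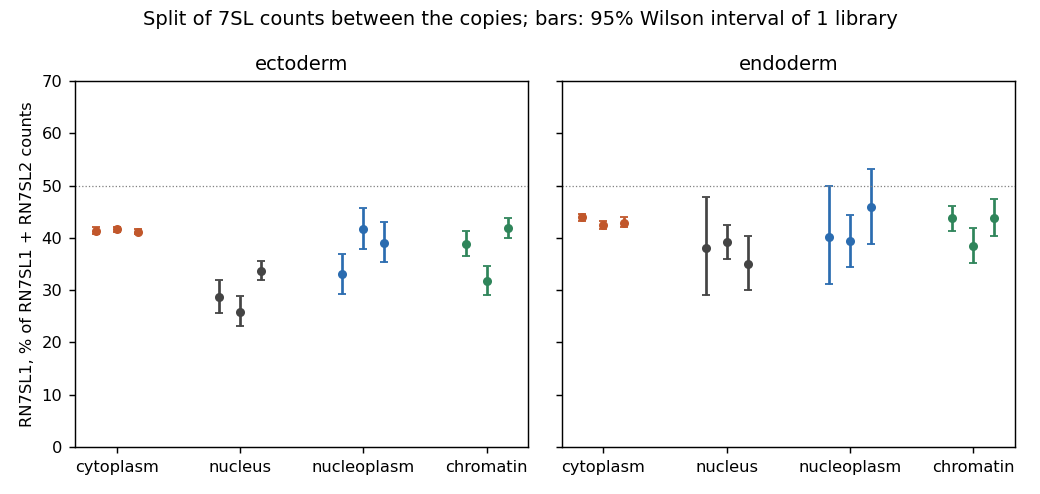
Percent of RN7SL1 plus RN7SL2 counts that fell on RN7SL1 in each library of ectoderm and endoderm, with 95% Wilson intervals that cover counting error only; the dotted line is an even split. Cytoplasm libraries cluster at 41.2 to 43.9%, and the ectoderm nucleus libraries lie at 25.9 to 33.7%, where 1 chromatin library (31.8%) and 1 nucleoplasm library (33%) of ectoderm also fall.

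Levels in cytoplasm were then compared between cell types. RN7SL1 averaged 776 ± 251 CPM (SD, n = 3) in hPSC and 986 ± 428 in ectoderm, and 375 ± 86.9 in endoderm and 295 ± 215 in mesoderm, so that ectoderm and hPSC overlapped, as did endoderm and mesoderm and, by 1 library each (514 and 492 CPM), mesoderm and hPSC. These 3 comparisons share the hPSC libraries. Against hPSC, ectoderm differed by a log2 value of 0.24 (SE 0.35, edgeR adjusted p = 0.554), where 36.6% of genes were called higher and 41.8% lay higher with no overlap. Endoderm was lower by a log2 value of -1.23 (SE 0.26, edgeR adjusted p = 0.00274), against a background of 24.9% called lower and 25.2% lower with no overlap. Mesoderm had -1.45 (SE 0.56, edgeR adjusted p = 0.0457), where 31.8% were called lower and 33.7% lay lower with no overlap on CPM over the genes both tables share. The call was lost with DESeq2 (adjusted p = 0.0735), with single transcripts (edgeR adjusted p = 0.133) and without hPSC replicate 2 (edgeR adjusted p = 0.113) or mesoderm replicate 3 (edgeR adjusted p = 0.123), and without mesoderm replicate 2 the value was -2.12.

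The missing RN7SL2 row changes this order. As a sum over the rows each table has, 7SL in ectoderm was higher than in hPSC by 1.51 (SE 0.36, edgeR adjusted p = 0.00363), and in endoderm the difference was -0.01 (SE 0.25, edgeR adjusted p = 0.969). Which of the values fits the cells depends on whether hPSC reads from RN7SL2 were counted on RN7SL1, and that was not tested. By mean CPM, ectoderm was highest and mesoderm, with RN7SL1 only, lowest under both ways of counting, whereas hPSC stood above endoderm for RN7SL1 (776 against 375) and below it for the sum (776 against 869).

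RPPH1 (ENSG00000277209; chromosome 14 from 20343075 to 20343407, minus strand, GRCh38; annotated as a ribozyme) was far scarcer than 7SL. Its endoderm cytoplasm libraries had 14.9, 13.4 and 10.5 CPM, against 0.873, 0.67 and 0.869 in nucleus. Nucleoplasm had 1.32, 1.32 and 1.3 CPM and chromatin 1.3, 0.127 and 1.28. Cytoplasm was 16.1-fold above nucleus by mean CPM, with a log2 difference of 3.26 (SE 0.41, edgeR adjusted p = 5.1e-06), on 167 to 274 counts in cytoplasm and 8 to 13 in nucleus. Chromatin and nucleoplasm overlapped, with a log2 difference of -1.02 (SE 0.46, edgeR adjusted p = 0.0746).

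For ectoderm, RPPH1 came from the combined assembly. Cytoplasm had 12, 7.72 and 13.5 CPM, nucleoplasm 3.01, 5.86 and 6.43, nucleus 0.506, 0.185 and 0.421, and chromatin 0, 0.351 and 0.371. The count of 0 in chromatin replicate 1 allows up to 0.211 CPM, the worth of 3 counts. No libraries overlapped between cytoplasm and nucleoplasm or between nucleoplasm and the other fractions. Cytoplasm exceeded nucleus by 4.68 on the log2 scale (SE 0.49, edgeR adjusted p = 6.44e-06), where 26.5% of genes were called higher and 40.1% did not overlap. Chromatin was below nucleoplasm by a log2 difference of -4.58 (SE 0.53, edgeR adjusted p = 3.3e-05), where 21.3% were called lower and 19.3% did not overlap, on 0 to 5 counts in chromatin and 43 to 108 in nucleoplasm; without chromatin replicate 1 it was -3.99.

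The row named 7SK spans chromosome 6 from 52995620 to 52995950, plus strand, GRCh38, and is 331 bases long. Its first 110 bases are shown because 7SK is the RN7SK locus under another name; capitals mark GATC, the letters of the 7SK hairpin that binds HEXIM proteins, found at positions 13, 42 and 64 from the 5′ end on the transcript strand (GATC reads the same on both strands). Of 201525 GENCODE transcripts of at least this length, 24.5% held GATC in their first 110 bases, and 0.367% held it 3 times or more.
7SK: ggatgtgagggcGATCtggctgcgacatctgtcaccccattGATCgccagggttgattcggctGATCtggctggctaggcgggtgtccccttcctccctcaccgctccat
Its hPSC cytoplasm libraries had 19, 13.6 and 8.49 CPM and its nucleus libraries 0.86, 0.665 and 0.317. Nucleoplasm had 4.86, 7.06 and 1.85 CPM and chromatin 0.696, 1.02 and 1.25. All cytoplasm libraries were above all others, and nucleoplasm was above both remaining fractions. The log2 difference between cytoplasm and nucleus was 4.41 (SE 0.52, edgeR adjusted p = 7.14e-06), on 128 to 204 counts in cytoplasm and 5 to 12 in nucleus.

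In ectoderm, the 7SK row had 13.4, 7.49 and 49.4 CPM in cytoplasm and 1.55, 1.41 and 2.82 in nucleus. It differed by 3.21 (SE 0.57, edgeR adjusted p = 0.000483), and by 2.10 without cytoplasm replicate 3 (edgeR adjusted p = 0.000266). In endoderm, cytoplasm had 5.07, 7.48 and 6.39 CPM and nucleus 0.739, 2.6 and 2.07, with no overlap (as in 55.3% of all genes in that direction). That log2 difference of 1.17 (SE 0.47, edgeR adjusted p = 0.038) lost its call without nucleus replicate 1 (edgeR adjusted p = 0.0914), nucleus replicate 3 (edgeR adjusted p = 0.0714), cytoplasm replicate 2 (edgeR adjusted p = 0.117) or cytoplasm replicate 3 (edgeR adjusted p = 0.0762), and with single transcripts (edgeR adjusted p = 0.164). In mesoderm cytoplasm the row had 2.87, 13.4 and 14.1 CPM and in nucleus 0.148, 0 and 0.803. The log2 difference was 5.04 (SE 0.94) on 0 to 8 nuclear counts, and 6.67 without nucleus replicate 3. Both values are descriptions, since that comparison helped choose the RNAs. The row's 0 in nucleus replicate 2 allows up to 0.418 CPM. Thus an RNA known as nuclear had its highest level in libraries labelled cytoplasm in all 4 cell types, as had MALAT1 against nucleus in hPSC and ectoderm. The nucleus mean of the 7SK row lay below nucleoplasm and chromatin in hPSC (0.614 CPM, against 4.59 and 0.987). The same held in ectoderm (1.93, against 3.9 and 2.44) and mesoderm (0.317, against 0.562 and 0.582). In endoderm it lay between them (1.8, with 0.636 and 2.63). Nucleus and chromatin libraries overlapped in each cell type.

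Between chromatin and nucleoplasm, the 7SK row had the direction of RN7SL1 in hPSC and endoderm, but not in ectoderm. In hPSC it was lower in chromatin, by -2.46 on the log2 scale (SE 0.50), with no overlap between libraries (as in 12.5% of all genes). That value is a description, since the hPSC comparison helped choose the RNAs. In ectoderm, nucleoplasm had 4.04, 4.37 and 3.3 CPM and chromatin 1.85, 2.96 and 2.5, with no overlap (as in 20.1% of all genes in that direction) and a log2 difference of -0.94 (SE 0.60, edgeR adjusted p = 0.223). In endoderm, chromatin had 2.84, 3.16 and 1.87 CPM and nucleoplasm 0.0697, 0.695 and 1.14, with no overlap (as in 51.3% of all genes in that direction). The log2 difference was 1.46 (SE 0.56, edgeR adjusted p = 0.0404), where 22.9% of genes were called higher. That call was lost without nucleoplasm replicate 1 (edgeR adjusted p = 0.132), nucleoplasm replicate 2 (edgeR adjusted p = 0.0814), chromatin replicate 1 (edgeR adjusted p = 0.0941) or chromatin replicate 2 (edgeR adjusted p = 0.1), and with single transcripts (edgeR adjusted p = 0.247). The value was 2.17 without nucleoplasm replicate 3. The endoderm nucleoplasm libraries held 1 to 15 counts.

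Against hPSC cytoplasm, the 7SK row was lower in endoderm by a log2 value of -1.27 (SE 0.29, edgeR adjusted p = 0.00439), but with limma on log2(TPM + 1) the value was -0.43 (adjusted p = 0.0775). In ectoderm it differed by 0.66 (SE 0.58, edgeR adjusted p = 0.319), a value that turned to -0.49 without ectoderm replicate 3. In mesoderm it differed by -0.46 (SE 0.53, edgeR adjusted p = 0.461).

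**Figure D3:**
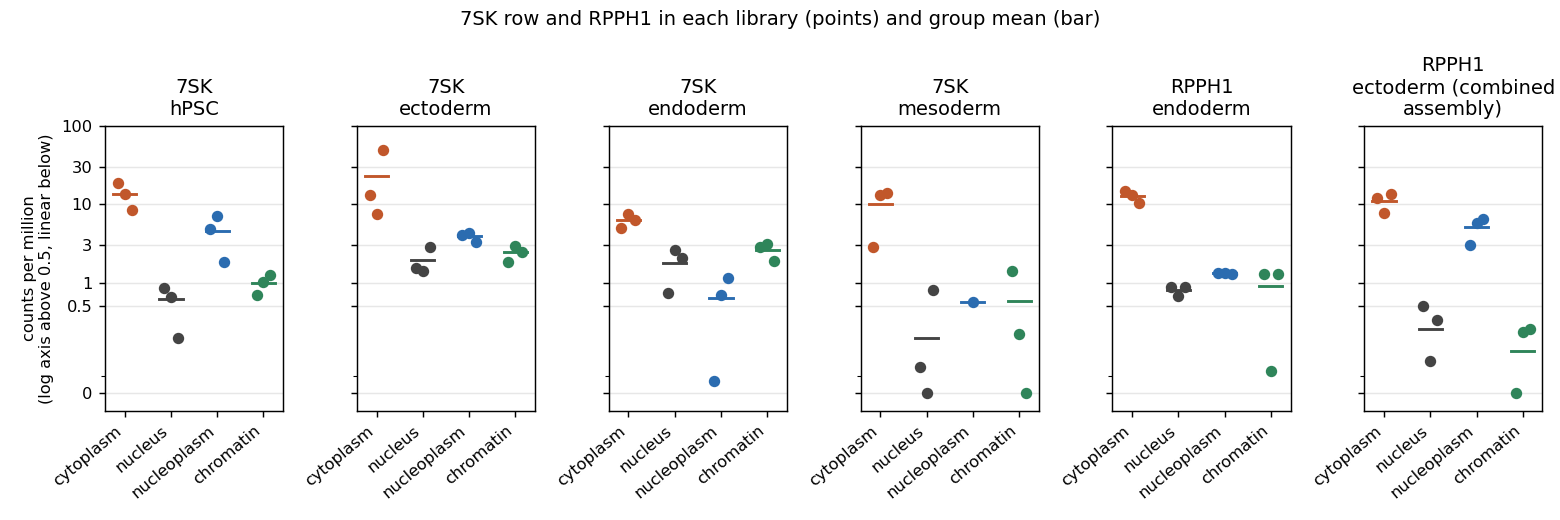
CPM of the 7SK row and of RPPH1 in each library (points) with the group mean (bar), by fraction; the axis is logarithmic above 0.5 and linear below. Cytoplasm is highest in each panel, and ectoderm replicate 3 stands at 49.4 CPM for 7SK against 7.49 and 13.4 in the other replicates.

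The length-corrected values the authors deposited (TPM) did not rank the libraries as the counts did. RN7SL1 TPM divided by CPM ranged from 14.2 to 78.3 across hPSC libraries and from 13.8 to 84 across ectoderm libraries. The range was 32.3 to 53.2 in endoderm and 15 to 133 in mesoderm. The library with the lowest ratio in hPSC, ectoderm and mesoderm was the one with the highest RN7SL1 CPM. These were hPSC nucleoplasm replicate 2 (1400 CPM, 19900 TPM), ectoderm cytoplasm replicate 3 (1390 CPM, 19300 TPM) and mesoderm cytoplasm replicate 2 (514 CPM, 7720 TPM). Each had the highest CPM of its group but not the highest TPM: hPSC nucleoplasm replicate 3 had 50200 TPM, ectoderm cytoplasm replicate 2 had 39300 and mesoderm cytoplasm replicate 3 had 13800.

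The 7SK row showed low ratios in the same libraries, 12.3 in hPSC nucleoplasm replicate 2, 10.4 in ectoderm cytoplasm replicate 3 and 11.1 in mesoderm cytoplasm replicate 2. Its ectoderm cytoplasm replicate 3, at 49.4 CPM, had 511 TPM, against 447 TPM in replicate 1 at 13.4 CPM. The ratio also differed between the copies of 7SL in a way that depended on the table: that of RN7SL2 over that of RN7SL1 was 0.954 to 0.98 in ectoderm, 1.67 to 2 in endoderm and 1.2 to 1.58 in the combined assembly. Copies with annotated lengths of 299 and 300 bases thus differed in TPM per count, and the split between copies in TPM is not comparable between tables.

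**Figure D4:**
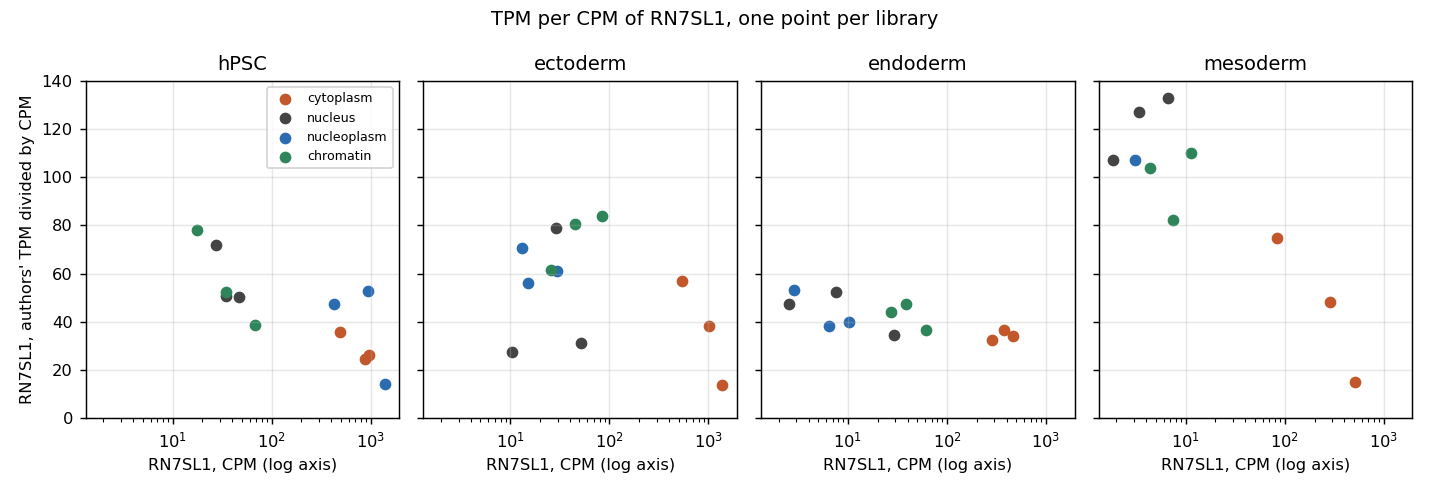
The authors' TPM divided by CPM for RN7SL1 in each library, against its CPM (log axis), by cell type and coloured by fraction. Endoderm libraries stay between 32.3 and 53.2, while in the other cell types the library richest in RN7SL1 has the lowest ratio, 13.8 to 15.

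The mRNAs of the proteins that work with these RNAs were examined between cytoplasm and nucleus in 4 gene lists. Of all genes tested, 35% were called higher in cytoplasm and 30.4% lower in hPSC, and 27.2% and 26.5% in ectoderm. The shares were 34.4% and 35.5% in endoderm, and 31.8% and 31.5% in mesoderm. They are the background for each list below. Of 8 signal recognition particle and receptor genes, 6 were higher and 2 lower in hPSC cytoplasm, with a median log2 difference of 1.02 against 0.10 for all genes tested. The counts were 4 higher and 3 lower in ectoderm (median 0.29), 6 and 2 in endoderm (median 1.75), and 4 and 1 in mesoderm (median 0.45). The median of all genes was 0.01, 0.01 and 0.00 there. SRP9, which binds the Alu domain of 7SL, rose most in hPSC, ectoderm and endoderm, by 1.96 (SE 0.30, edgeR adjusted p = 6.71e-05), 1.58 (SE 0.16, edgeR adjusted p = 3.19e-06) and 2.93 (SE 0.27, edgeR adjusted p = 2.09e-07). Its partner SRP14 rose most in mesoderm, by 2.17 (SE 0.31, edgeR adjusted p = 0.000122). The genes that fell most encode the membrane receptor: SRPRB in hPSC (-1.82, edgeR adjusted p = 7.17e-08), ectoderm (-1.39, edgeR adjusted p = 9.45e-07) and endoderm (-1.91, edgeR adjusted p = 1.1e-07), and SRPRA in mesoderm (-1.20, edgeR adjusted p = 1.15e-05).

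Of 7 genes for proteins of the 7SK particle and its kinase, 5 were higher and 1 lower in hPSC cytoplasm. The counts were 2 and 3 in ectoderm, 2 and 1 in endoderm, and 2 and 3 in mesoderm. Medians were 0.53, -0.34, 0.21 and 0.21 in that order. Outside hPSC, the counts called higher were near the share of all genes called higher. LARP7, which binds the 3′ end of 7SK, was 36.9 CPM in hPSC cytoplasm against 12.8 in nucleus, a rise of 1.46 (SE 0.24, edgeR adjusted p = 0.00014), and rose by 2.90 in ectoderm (SE 0.30, edgeR adjusted p = 4.47e-06) and 2.75 in endoderm (SE 0.29, edgeR adjusted p = 7.9e-07). In mesoderm LARP7 fell by 1.39 on the log2 scale (SE 0.28, edgeR adjusted p = 0.00122), at 45.7 CPM against 129. There HEXIM2, an inhibitor of the kinase, rose most (1.23, edgeR adjusted p = 0.021). CCNT1, a cyclin of the kinase, fell most in hPSC (-0.90, edgeR adjusted p = 5.59e-05). MEPCE, which caps 7SK, fell most in ectoderm (-0.87, edgeR adjusted p = 5.19e-05) and in endoderm (-0.44, edgeR adjusted p = 0.0392), although on CPM of the library total its endoderm mean was higher in cytoplasm, at 76.5 against 62.1.

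Of 11 protein genes of RNase P and MRP, 9 were higher and 0 lower in hPSC cytoplasm (median 0.78), and 0 were higher and 5 lower in ectoderm (median -0.19). In endoderm 5 were higher and 1 lower (median 0.40), and in mesoderm 9 were higher and 1 lower of 10 tested (median 0.88). POP7, a shared subunit, rose most in hPSC (1.38, edgeR adjusted p = 8.78e-06) and mesoderm (2.21, edgeR adjusted p = 5.61e-06), and RPP40 in endoderm (1.50, edgeR adjusted p = 0.000368). RPP25 fell most in ectoderm (-0.88, edgeR adjusted p = 0.000802). POP1, the largest subunit, fell in mesoderm (-1.08, edgeR adjusted p = 0.000121) and in endoderm (-0.43, edgeR adjusted p = 0.0292), where its mean CPM was nonetheless higher in cytoplasm, at 17 against 14.2.

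Of 22 genes for RNA polymerase III and its factors, 15 were higher and 2 lower in hPSC cytoplasm, 9 and 8 in ectoderm, 11 and 3 of 19 tested in endoderm, and 13 and 5 in mesoderm, with medians of 0.62, 0.08, 0.43 and 0.69. SSB, the La protein that binds new polymerase III transcripts, rose most in ectoderm (2.67, edgeR adjusted p = 1.9e-05) and endoderm (3.62, edgeR adjusted p = 1.45e-08). SNAPC5 rose most in hPSC (2.66, edgeR adjusted p = 7.93e-06) and mesoderm (2.45, edgeR adjusted p = 2.71e-05). SNAPC4, of the same promoter-binding complex, fell most in hPSC (-1.04, edgeR adjusted p = 0.000224), endoderm (-2.09, edgeR adjusted p = 2.42e-09) and mesoderm (-1.20, edgeR adjusted p = 0.00228), and POLR3A, the largest polymerase subunit, in ectoderm (-0.99, edgeR adjusted p = 1.98e-05).

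**Figure D5:**
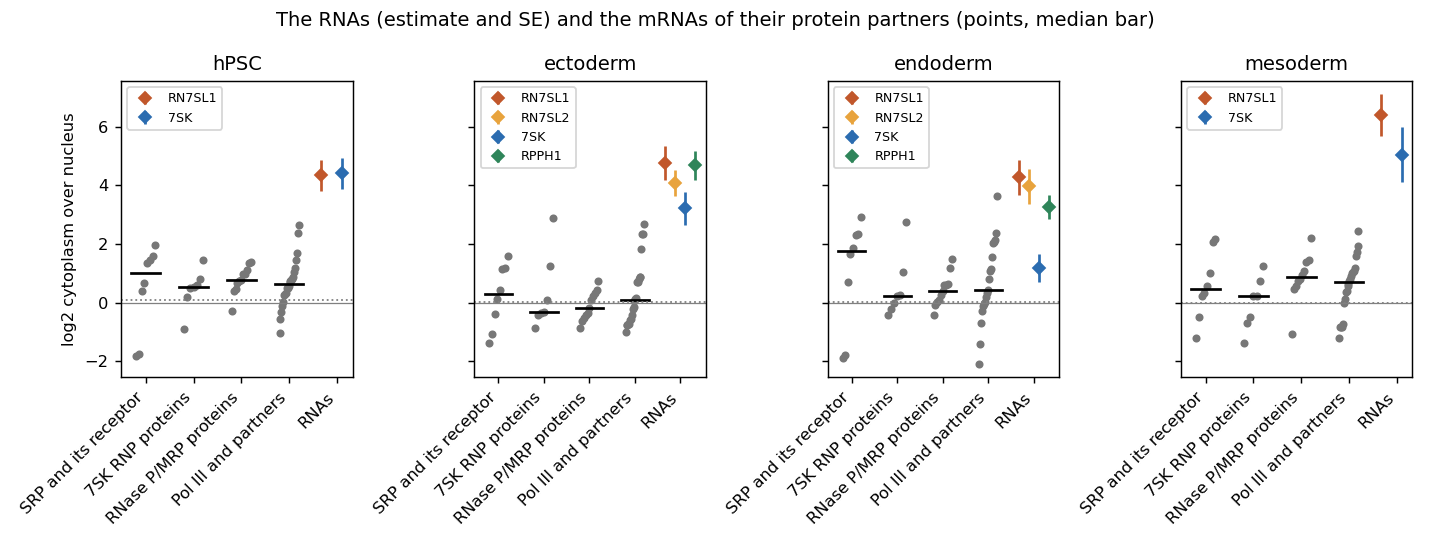
Log2 difference between cytoplasm and nucleus for the RNAs (diamonds, with SE; RPPH1 in ectoderm from the combined assembly) and for each gene of 4 lists of protein partners (points, with the median as a bar); the dotted line is the median of all genes. The 7SL copies lie between 3.97 and 6.39, and the largest value of a partner mRNA is 3.62, for SSB in endoderm.

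Rows named for other small structured RNAs were mostly highest in chromatin. The name rule took in small nuclear, nucleolar, Cajal-body and Y RNAs, further small RNAs, and pseudogenes of such RNAs. It did not keep out pseudogenes of the RNAs described above. Rows taken by this rule numbered 49 genes in hPSC and 148 in ectoderm, with 55 in endoderm and 70 in mesoderm. Of those with a mean of at least 1 CPM, chromatin was the highest fraction for 20 of 29 hPSC genes and 57 of 61 ectoderm genes, and for 25 of 26 and 48 of 49 in endoderm and mesoderm. Among all genes at that level the share was 36.2%, 47.7%, 34.8% and 35.7%. Few of these rows carry an annotated transcript identifier (4, 6, 3 and 5 transcripts), so a row named for a small RNA may be an assembled transcript of its host gene.

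SNORD116-4 averaged 113 CPM in hPSC chromatin and 53.3 in cytoplasm, and 208 against 55.9 in ectoderm. SNORA11E averaged 196 CPM in ectoderm chromatin and 27.9 in cytoplasm. RNU6-1330P in endoderm went the other way, with 81.2 CPM in cytoplasm and 37 in chromatin.

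The genes most alike to each RNA across the libraries of a cell type were found by Pearson correlation of log2(CPM + 1), which is a description since libraries of a fraction share preparation and depth. Each 7SL copy was most like the other, with r = 0.992 in ectoderm and 0.998 in endoderm over 12 libraries. After it came CDK8 (0.958) for RN7SL1 in ectoderm and SMYD2 (0.987) in endoderm. In hPSC the nearest to RN7SL1 was FARSB (0.933), and in mesoderm, over 10 libraries, SNHG29 (0.978). RPPH1 in endoderm was nearest to CIAO2A (0.983), and the 7SK row in mesoderm was nearest to RN7SL1 (0.96).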

How the data were processed

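RNA of 4 fractions of 4 cell types was measured in 46 libraries. The authors deposited, in 5 tables, counts per assembled transcript and library, and in 5 further tables the authors' TPM; RSEM, STAR and hg38 are named in the submitters' processing notes, without versions. Each cell type has its own assembly, and the combined assembly was used for its ectoderm libraries. In the ectoderm count table, 1 library column matched no label and was not used. Counts were summed over the rows of a gene; CPM is the count over the library total, times 1000000. Genes passing filterByExpr (minimum count 10) were tested with edgeR 4.0.16 (quasi-likelihood F-test, TMM, R 4.3.3), Benjamini-Hochberg adjusted over all genes, threshold 0.05; each row of the set passed. Adjusted p-values given are from edgeR unless another tool is named. Genes most alike were sought among those with a mean of at least 10 CPM. Alternatives were DESeq2 1.42.0, limma 3.58.1 on log2(TPM + 1), total counts, no filter, single transcripts, a replicate block, each library left out and the combined assembly. RPPH1 in ectoderm rests on the combined assembly because the ectoderm table lacks it. Protein and marker genes are lists of known function; from each protein list the genes called with the largest rise and fall were named. The RNAs and lists were chosen with earlier results of these data known. The edgeR fit was also run on simulated hPSC counts with few changed genes, which does not test the calls given here. Of 45 replicate pairs, 0 were identical. Wilson intervals and the floor of 3 counts cover counting error only. Lineage comparisons cross assemblies, so a gene's rows can differ between tables. The sequences of the 7SL copies are not reported here.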

Additional observations from a re-analysis of the deposited data

Results flagged for a closer look

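RN7SL1 differed in direction between cell types in the comparison of chromatin minus nucleoplasm. Every hPSC chromatin library lay below every nucleoplasm library (log2 -4.76), and every endoderm chromatin library lay above (2.11), as did the 7SL sum in ectoderm (1.15). Of all genes, 12.5% lay lower in hPSC chromatin with no overlap, and 51.3% in endoderm and 39.8% in ectoderm lay higher. The ectoderm sum did not pass the threshold (edgeR adjusted p = 0.051). The 7SK row also ran opposite ways, at -2.46 in hPSC and 1.46 in endoderm, the latter on 1 to 15 counts per nucleoplasm library. The difference between cell types was not tested, and the hPSC value of RN7SL1 was among those that led to its choice.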

How the results depend on the processing

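Of 288 alternatives across the 24 results on RN7SL1, RN7SL2, their sum and RPPH1, 261 kept the direction and the side of the threshold. Described values of RN7SL1 counted as kept if they moved by under 1 SD. The 7SK row was judged by direction and threshold throughout, and 110 of its 122 alternatives were kept. The cause of the others was not tested. In ectoderm chromatin against nucleoplasm, RN7SL2 lost its call with single transcripts (1.05), RN7SL1 gained one with limma on TPM (1.63), and the 7SL sum gained one with total counts (1.44), no filter (1.23), limma on TPM (1.65) and the combined assembly (1.17). Leaving out 1 library there gave 0.88 to 1.49 for RN7SL2, 0.72 to 1.66 for RN7SL1 and 0.81 to 1.55 for the sum. In endoderm, single transcripts lost the chromatin calls of RN7SL2 (1.89) and RN7SL1 (1.93). The mesoderm difference of RN7SL1 between cytoplasm and nucleus moved to 4.38 with limma on TPM.

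For endoderm against hPSC cytoplasm, the 7SL sum changed sign with total counts (0.10), with limma on TPM, where it passed the threshold (0.98), and with the replicate block (0.03); leaving out 1 library gave -0.26 to 0.19. For ectoderm against hPSC, leaving out 1 library gave -0.05 to 0.55 for RN7SL1 and -0.49 to 1.07 for the 7SK row. For mesoderm against hPSC, RN7SL1 lost its call with DESeq2 (-1.48) and single transcripts (-1.37), and leaving out 1 library gave -2.12 to -1.01. The 7SK row lost its call in endoderm against hPSC with limma on TPM (-0.43). The replicate block changed no other direction or call of these RNAs. No comparison had all 3 same-numbered pairs correlated above 0.1. For cytoplasm against nucleus the correlations were 0.201, 0.139 and 0.057 in hPSC and -0.142, 0.222 and -0.459 in endoderm. Different-numbered pairs were not compared, so these values cannot show whether replicate numbers pair the samples.

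Total counts in place of TMM moved the median log2 difference of all genes between cytoplasm and nucleus from 0.01 to 0.35 (ectoderm), 0.01 to 0.71 (endoderm) and -0.00 to -0.11 (mesoderm), that of ectoderm against hPSC from 0.00 to 0.11, and that between chromatin and nucleoplasm from -0.00 to 0.23 in hPSC, -0.09 to 0.19 in ectoderm and -0.12 to 0.46 in endoderm. The share of called genes that were higher went from 50.7 to 76.4% and from 49.2 to 71.4% for cytoplasm, and from 56.2 to 86.5%, 41.9 to 71% and 42.8 to 73.8% for chromatin. With limma on TPM that share was 33.9, 75.7, 62.8 and 10.6% for cytoplasm over nucleus in hPSC, ectoderm, endoderm and mesoderm (with edgeR 53.6, 50.7, 49.2 and 50.3%), 96.7, 96.5 and 76% for chromatin, and 74.7 and 64.4% for endoderm and mesoderm against hPSC (51.2 and 51.7%). Of the partner genes called lower in cytoplasm, 1 in ectoderm and 3 in endoderm had a higher mean CPM there. All-gene calls changed by over 1.5 times in ectoderm cytoplasm against nucleus (8586, and 5345 with limma on TPM or 5694 with single transcripts), in hPSC chromatin against nucleoplasm (4312, and 7783 with limma on TPM, 2818 with single transcripts or 2613 without nucleoplasm replicate 1) and in endoderm against hPSC (5828, and 3567 with single transcripts). The sum over copies has no single-transcript fit. Low counts limit RPPH1 and 7SK outside cytoplasm.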
